A study of Oryza sativa with 20 samples.

Results

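The pistil of rice (Oryza sativa) was compared between zygote formation, 5 to 7 h after pollination, and fertilization, 40 to 50 min after pollination. The comparison rests on 6 of the 20 arrays of the series, 3 for each stage, chosen by the stage named in their labels. Each array of both groups carried total RNA from stigma and ovary together, and the pollen grains lying on the stigma were collected with them. The plants stood in paddy fields at Mishima, Japan, tissue was taken between August and October, and no cultivar, transgene or chemical treatment is named in the labels. The other 14 arrays hold 3 of unpollinated stigma, 3 of unpollinated ovary, 2 of stigma 5 min after pollination, 3 of ovary 5 min after pollination and 3 of whole pistil during pollen tube growth (15 to 25 min). The labels call the arrays of a stage biological replicates but give no plant or day of sampling for them. The p-values therefore measure the spread between arrays only. That spread was taken within all 7 groups of the series, the unpollinated organs included, and not within these stages alone.

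In a grass pistil the pollen tube enters through the feathery stigma, passes down the ovary and releases its sperm cells in the embryo sac of the single ovule. One sperm cell joins the egg to form the zygote and the other joins the central cell to start the endosperm. The endosperm nuclei begin to divide while the zygote has not yet divided, and the maternal nucellus, integuments and ovary wall make up most of the tissue throughout. Copying of DNA before a division needs an origin recognition complex, the MCM helicase ring, the single-strand binding protein RPA, the clamp PCNA with its loader RFC, and newly made histones. A zygote is 1 cell among very many in these samples.

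Expression was measured on the Affymetrix Rice Genome Array as relative intensity, on a scale where the 75th percentile of every array is 1. On the log2 scale the first principal component of the 6 arrays carried 62.8% of the variance and separated the stages, with the fertilization arrays between -61.5 and -46.7 and the zygote arrays between 52.7 and 60.9. Arrays of 1 stage correlated at 0.961 or more over the probe sets tested. Of 35470 probe sets tested, 3981 (11.2%) were higher and 2408 (6.79%) lower at the zygote stage at an adjusted p under 0.05 in limma's moderated test. With each gene represented by 1 probe set, 2620 of 16263 genes (16.1%) were higher and 1469 (9.03%) lower, around a median log2 change of 0.04. The 3 arrays of one stage did not overlap the 3 of the other in 31.1% of genes (higher) and 22.5% (lower). Of the probe sets that changed, 1371 rose and 1118 fell by at least 2-fold, and 110 rose and 180 fell by at least 4-fold. Among the probe sets that rose, 3595 (90.3%) had a higher mean at the zygote stage than in any of the other 6 groups of the series, and among those that fell, 1901 (78.9%) had a lower one. The share of calls that were higher, 62.3% here, depended on scaling: it was 57.8% after quantile normalization, 55.6% with the scale taken from the 9103 probe sets bright on all arrays and 74.8% when arrays were centred on their medians. Median centring moved the median of all probe sets from -0.03 to 0.10 on the log2 scale.

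Some arrays stood apart in what they held. The third fertilization array carried less signal associated with pollen than the other two. SWEET5, a sugar transporter abundant in pollen, read 4.05, 4.06 and 0.478 on fertilization arrays 1 to 3 and 3.57, 3.92 and 4.04 on the zygote arrays. EXPB9, a pollen beta-expansin that loosens grass cell walls, read 15.5, 19.5 and 1.46 at fertilization and 10.1, 11.3 and 13.2 at the zygote stage. Neither gene passed the test (adjusted p = 0.37 and 0.64). EXPB10, another pollen expansin, did not pass either (log2 change -0.52). Rac4, a small GTPase listed with them, rose by 0.85 on the log2 scale. Its means were 1.61 and 1.84 in unpollinated stigma and ovary and 1.71 in the 5 min stigma, so it did not track pollen there. The 4 listed pollen markers named on the array summed to 3.08 to 25.23 at fertilization and 16.3 to 19.6 at the zygote stage. A set of 232 probe sets that rose at least 8-fold in the stigma within 5 min of pollination and averaged less than 2 times the floor in the unpollinated ovary had median levels of 1.53, 1.09 and 0.403 on fertilization arrays 1 to 3 and 0.848 to 0.910 on the zygote arrays. In this set 9 probe sets were higher and 35 lower (3.88% and 15.1%), against 11.2% and 6.79% of all probe sets tested. The median log2 change of the set was 0.15 with all arrays and -0.50 without fertilization array 3. Within the fertilization group, array 2 was the lowest of the 3 for 12 of the 15 largest falls described below, against 43.8% of the probe sets that fell and 26.1% of all probe sets tested. The part of pollen load in the results below was not tested.

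**Figure D1:**
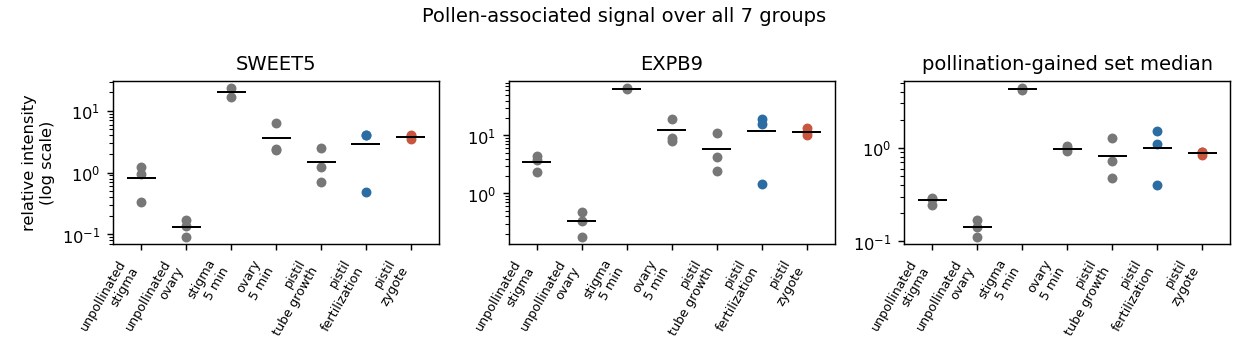
Relative intensity (log scale) of SWEET5, EXPB9 and the median of the 232 probe sets gained in the stigma after pollination, in each of the 7 groups. Points are arrays and bars are means. The third fertilization array lies below the other two in all panels, while the 3 zygote arrays lie close together.

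The labelled tissue could be checked against marker genes. Carpel and ovule factors were present at both stages: the summed intensity of 8 markers was 148 to 172 at fertilization and 149 to 157 at the zygote stage. The floral MADS factors MADS7 and MADS8 had means of 37.4 and 45.0 at fertilization within this sum. It therefore does not mark carpel or ovule tissue alone. MADS13, which gives ovules their identity, read 11.03 to 12.53 and then 11.5 to 14.0, and DL, the carpel gene DROOPING LEAF, read 4.94 to 7.92 and then 6.61 to 7.71. Only MADS3, a floral organ identity factor, changed among the 8, from 3.47, 5.77 and 4.76 to 2.70, 2.41 and 2.45 (log2 change -0.86, SE 0.22, adjusted p = 0.010). Without fertilization array 2 its adjusted p was 0.056, and after median centring 0.052. MADS29, needed for breakdown of the nucellus in the young rice seed, read 4.04, 4.91 and 3.19 at fertilization and 8.28, 7.70 and 7.43 at the zygote stage. These groups did not overlap, yet its log2 change of 0.97 (SE 0.50) did not pass the test over the spread of all groups (adjusted p = 0.20). NF-YB1 (nf-yb1), an endosperm factor, stayed at 0.117 to 0.260 on all 6 arrays, close to the floor of 0.128 set for the whole table. Of the zygote and embryo markers fixed for this comparison, only WOX8 and WOX9 could be named on the array. WOX8 had a log2 change of 0.00 (SE 0.27) and WOX9 one of -0.68 (SE 0.29, adjusted p = 0.12). The mean of WOX8 was 3.60 in unpollinated stigma against 1.57 at the zygote stage, so it did not mark the zygote here. None of 6 seed storage protein genes tested passed in either direction. The 3 stamen and lodicule markers had a summed intensity of 29.2 to 30.2 at fertilization and 16.4 to 19.6 at the zygote stage. Of these only MADS2 passed, a petal and lodicule factor that fell from 17.6, 17.8 and 15.1 to 8.60, 6.32 and 7.30 (adjusted p = 3.7e-04). MADS4 and MADS16 had log2 changes of -0.06 and -0.42 and did not pass. All 3 had higher means in unpollinated stigma than in unpollinated ovary, MADS2 at 75.9 against 20.55, so their sum does not mark stamen or lodicule tissue alone. The 3 tapetum and anther wall markers summed to 1.89 to 2.06 and then 2.57 to 3.08, and none of them passed the test. Most of this sum was GAMYB, with means of 1.63 and then 2.34. GAMYB also had means of 1.98 in unpollinated stigma and 1.29 in unpollinated ovary, so the sum does not mark anther wall alone. EAT1 and PTC1 read 0.145 to 0.306 on the 6 arrays.

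DNA replication genes made up the group with the highest median change. Of 30 genes tested, 25 (83.3%) were higher at the zygote stage and none was lower, against 16.1% and 9.03% of all genes. The median log2 change was 1.32 against 0.04 over all genes. All 6 subunits of the MCM helicase ring, MCM2 to MCM7, rose, with log2 changes between 1.57 and 2.28, and none of their arrays overlapped between stages. MCM7 read 1.89, 2.37 and 2.06 on the fertilization arrays and 11.8, 9.47 and 9.45 on the zygote arrays, a log2 rise of 2.28 (SE 0.24, adjusted p = 1.2e-05). MCM2 read 5.64, 6.80 and 4.61 and then 20.3, 16.8 and 17.9. In both subunits the lowest zygote array lay more than 2-fold above the highest fertilization array. MCM8 and MCM9, which act in DNA repair and not in the replicative ring, had log2 changes of 0.09 (SE 0.27) and 0.00 (SE 0.18), and neither passed the test.

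The single-strand binding protein RPA has several large subunits in rice. RPA70B, 1 of its large subunits, read 2.02, 2.83 and 2.73 at fertilization and 14.7, 15.8 and 14.7 at the zygote stage, a 6.04-fold rise (log2 change 2.60, SE 0.27, adjusted p = 9.7e-06). RPA32A, a middle subunit, read 3.72, 5.10 and 2.89 and then 18.1, 18.3 and 18.0 (log2 change 2.26, SE 0.25). The paralogue RPA70A read 1.94, 2.44 and 1.83 and then 2.43, 2.43 and 2.90, which did not pass the test (log2 change 0.33, SE 0.18, adjusted p = 0.22). In all, 5 of 7 RPA genes rose. PCNA, the sliding clamp, read 6.52, 8.17 and 5.43 and then 25.9, 27.2 and 26.3 (log2 change 2.00, SE 0.21). All 5 genes of the origin recognition complex rose, by 0.52 to 1.87 on the log2 scale, as did all 5 of the clamp loader RFC, by 0.40 to 1.43. Not all of these calls held under the alternatives. RFC1 lost its call under 9 of them (adjusted p up to 0.154) and ORC2 under 5 (up to 0.0945). For both genes these included median centring and leaving out single arrays. The catalytic subunit of DNA polymerase delta, polD1, went from 1.97 ± 0.289 (SD, n = 3) to 5.83 ± 0.0997.

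Most of these genes were ovary-preferring before pollination. Of the 30, 24 were higher in the unpollinated ovary than in the unpollinated stigma, against 16.7% of all genes tested, and none was higher in the stigma, against 22.8%. The median level of MCM2 to MCM7 was 0.210 in unpollinated stigma, 2.78 in unpollinated ovary, 2.81 in the pistil during pollen tube growth, 3.57 at fertilization and 12.1 at the zygote stage. For 27 of the 30 replication genes the zygote stage had the highest mean of the 7 groups. In whole-pistil RNA, a larger number of cells of a type cannot be told apart from more RNA per cell.

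**Figure D2:**
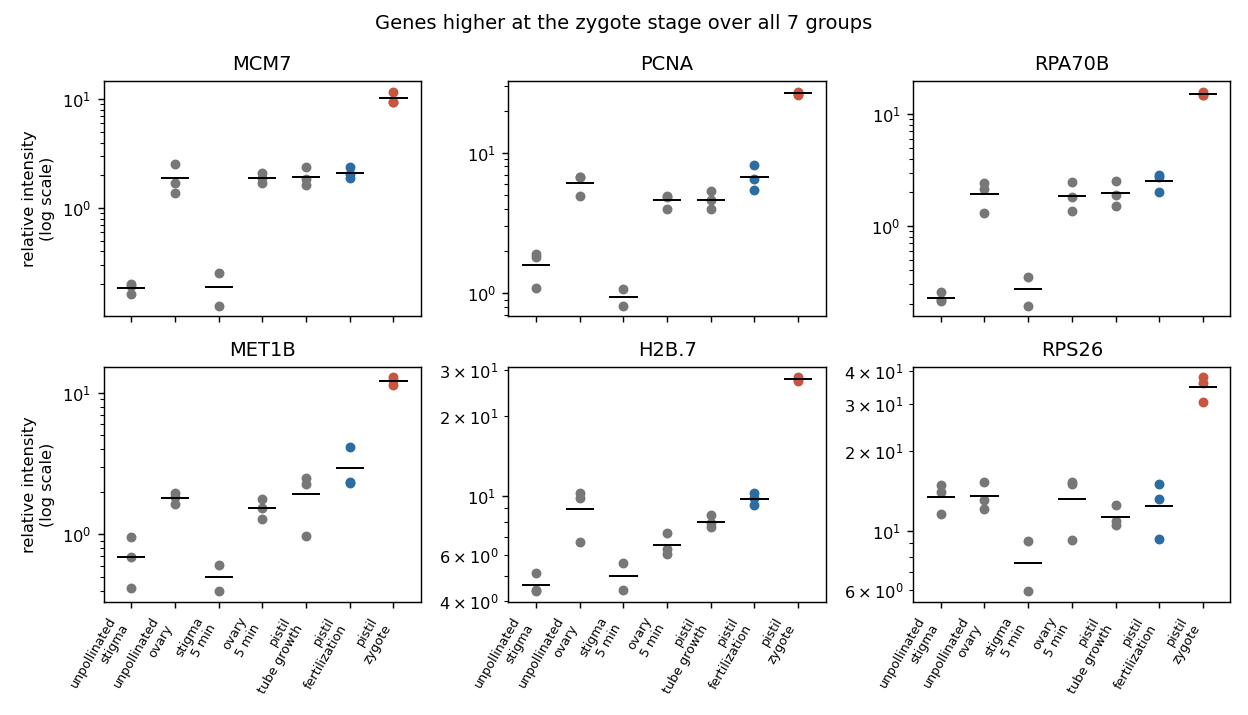
Relative intensity (log scale) of 6 genes that rose at the zygote stage, in each of the 7 groups. Points are arrays and bars are group means. In MCM7, PCNA, RPA70B, MET1B, H2B.7 and RPS26 alike the 3 zygote arrays lie above all arrays of the other whole-pistil groups.

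Of 13 genes for histones and chromatin remodelling tested, 5 (38.5%) rose and 1 (7.69%) fell, against 16.1% and 9.03% of all genes. The median log2 change was 0.36. The 5 that rose were all the H2B genes tested, by 0.86 to 1.50 on the log2 scale. H2B.7 read 9.83, 9.22 and 10.3 at fertilization and 27.8, 28.1 and 27.2 at the zygote stage (log2 change 1.50, SE 0.15, adjusted p = 8.4e-06). CenH3, the histone of centromeres, had a log2 change of 0.36 (SE 0.26) that did not pass. EZ1, a Polycomb methyltransferase, fell from 2.41, 1.70 and 2.78 to 1.50, 1.61 and 1.57 (log2 change -0.53, adjusted p = 0.035). That call was lost without any 1 of the zygote arrays or fertilization arrays 1 or 3 (adjusted p between 0.073 and 0.17) and after median centring (0.38). Fitting only the 2 groups compared, with or without a replicate block, lost it too.

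Of 24 genes of small RNA pathways and DNA methylation, 7 (29.2%) rose and none fell, against 16.1% and 9.03% of all genes. MET1B, the main enzyme that copies CG methylation onto new DNA in rice, read 4.15, 2.36 and 2.31 and then 11.3, 12.9 and 12.4 (log2 change 2.11, SE 0.33, adjusted p = 3.1e-04). CMT3, which maintains methylation at CHG sites, read 1.94, 1.92 and 1.42 and then 6.09, 8.04 and 7.80 (log2 change 2.06, SE 0.24). The second CG enzyme, MET1A, rose from 0.318 ± 0.0155 to 0.761 ± 0.146 (SD, n = 3). DRM2, the main de novo enzyme, had a log2 change of 0.31 and did not pass. MEL1, an Argonaute protein known from rice germ cells before and during meiosis, read 0.594, 0.710 and 0.394 at fertilization and 3.14, 2.66 and 2.72 at the zygote stage (log2 change 2.37, SE 0.34, adjusted p = 1.6e-04). Its mean was 0.333 during pollen tube growth and 0.621 in unpollinated stigma. The AGO1 genes AGO1A, AGO1B and AGO1D had changes between -0.32 and 0.10 and did not pass.

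Calls among cell cycle regulators fell mainly on A-type and D-type cyclins. Of 40 cyclins, cyclin-dependent kinases and their inhibitors tested, 10 (25.0%) rose and 1 fell, with a median of 0.13. After median centring 6 rose. The A-type cyclin CYCA3-2 read 1.18, 1.18 and 0.931 and then 2.79, 3.23 and 3.13 (log2 change 1.48, SE 0.17), and the D-type cyclin CYCD3-2 read 0.910, 1.07 and 0.950 and then 2.39, 2.61 and 2.60. Of the D-type cyclins 4 of 9 rose, as did 2 of 3 A-type cyclins. The second of these, CYCA2-1, lost its call without zygote array 2 or 3 or fertilization array 2 or 3, which left 1 of 3. Its call was also lost with the scale taken from probe sets bright on all arrays and without the filter. None of the 4 B-type cyclins tested, which drive entry into mitosis, passed the test, and their changes lay between -0.22 and 0.31. CDKB2-1, a kinase of the later cell cycle, read 2.65, 3.29 and 3.79 and then 3.54, 6.97 and 6.05, so its groups overlapped (adjusted p = 0.28). Among 43 kinesin and tubulin genes 14 (32.6%) rose and none fell, including 7 of 8 beta-tubulins. The count was 6 without zygote array 2, 7 without zygote array 3 and 7 without fertilization array 1. TUB2 went from 20.0, 24.2 and 15.1 to 44.1, 50.8 and 44.6, and the minus-end kinesin KIN14N from 2.80, 2.64 and 2.30 to 5.88, 8.12 and 7.25. Of 34 kinesins 6 rose (17.6%), a share near the 16.1% of all genes.

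Genes for ribosomes and translation rose nearly as one group. Of 32 tested, 26 (81.3%) were higher at the zygote stage and none was lower, against 16.1% and 9.03% of all genes. The median log2 change of the 32 was 0.81. Among the 26 were 20 of 24 ribosomal protein genes. RPS26, a protein of the small subunit, read 9.31, 15.0 and 13.2 at fertilization and 30.5, 37.8 and 36.0 at the zygote stage (log2 change 1.50, SE 0.22, adjusted p = 1.7e-04). RPL7A-2, of the large subunit, went from 11.9, 13.9 and 11.1 to 29.7, 27.0 and 27.2. The initiation factor subunit eIF3k went from 6.34 ± 0.359 to 14.1 ± 0.122 (SD, n = 3). The remaining 6 of the list, among them RPL18, EF-1-alpha and eIF-4G, had log2 changes between -0.29 and 0.32. Before pollination, 9 of the 32 were higher in the unpollinated ovary than in the stigma. Of 24 proteasome and ubiquitin genes, 9 (37.5%) rose and 1 fell (5 rose without zygote array 3 and 5 after median centring), with UBQ2 going from 22.2, 28.9 and 17.2 to 42.6, 39.7 and 39.7.

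**Figure D3:**
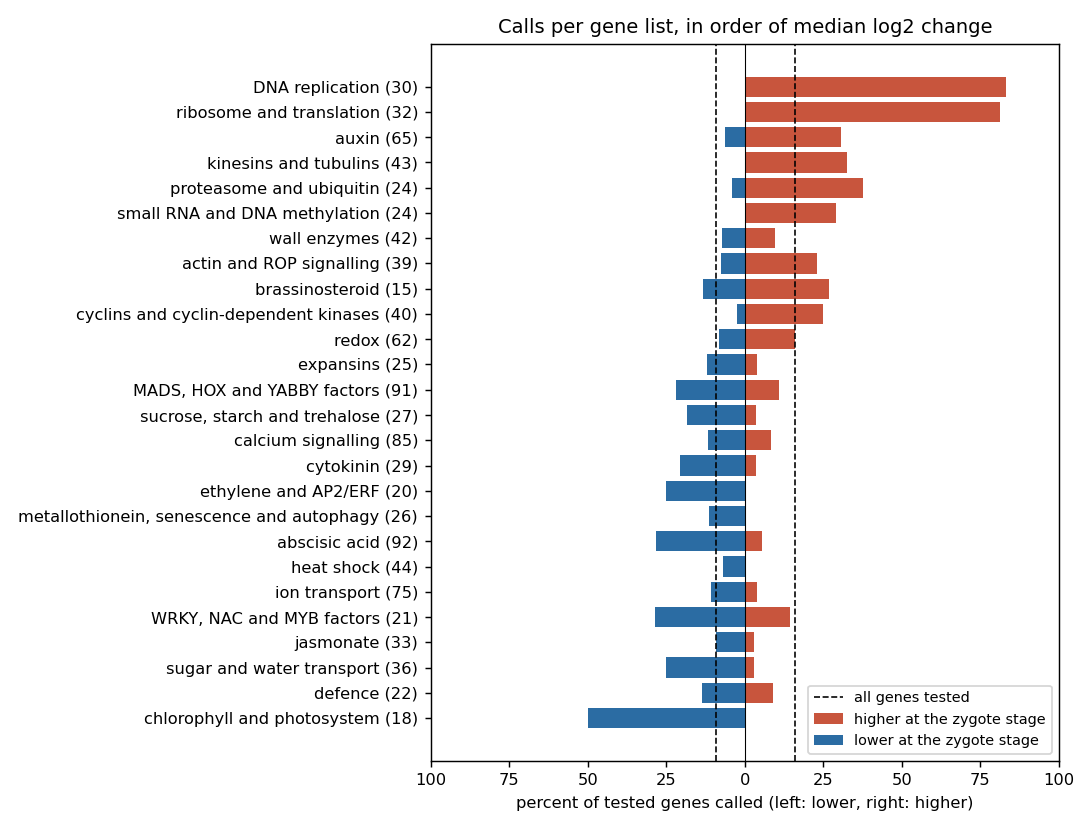
Percent of the tested genes of each list (number tested in brackets, lists of 15 or more) that were higher (right) or lower (left) at the zygote stage, ordered by median log2 change. Dashed lines mark all genes tested, 16.1% higher and 9.03% lower. The replication and ribosome bars reach above 80%, and the chlorophyll and photosystem bar reaches 50.0% on the lower side.

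Auxin genes gave 4 of the 15 largest rises. Of 65 auxin genes tested, 20 (30.8%) rose and 4 (6.15%) fell, with a median of 0.39. TAR2 (also called FIB), a tryptophan aminotransferase that begins auxin synthesis, read 0.435, 0.622 and 0.254 at fertilization and 3.43, 2.31 and 2.65 at the zygote stage (log2 change 2.75, SE 0.30, adjusted p = 1.5e-05). YUCCA1, which acts in the next step, stayed between 0.163 and 0.280 on all 6 arrays. DAO, a dioxygenase that inactivates auxin, read 1.295, 1.576 and 0.583 and then 9.60, 6.40 and 7.22 (log2 change 2.85, SE 0.43, adjusted p = 2.4e-04). Genes for both making and removing the hormone were higher, with no overlap between stages.

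Among the auxin response genes, IAA10, a repressor of the Aux/IAA family, had the largest change. It read 1.98, 1.88 and 1.47 and then 14.9, 14.6 and 14.4, an 8.31-fold rise (log2 change 3.06, SE 0.26, adjusted p = 1.2e-06). IAA14 read 0.486, 0.500 and 0.276 and then 2.42, 2.64 and 2.89. In the opposite direction, IAA12 fell from 1.68, 2.93 and 1.06 to 0.835, 0.448 and 0.673 (log2 change -1.46, adjusted p = 0.017) and IAA18 from 4.68, 3.38 and 4.60 to 1.67, 1.69 and 1.86 (log2 change -1.27). Of 25 Aux/IAA genes 8 rose and 2 fell, and of 18 auxin response factors 8 rose and 1 fell. Over all genes 16.1% rose and 9.03% fell. ARF17 was the response factor that fell, from 9.65, 10.5 and 8.69 to 4.46, 3.93 and 4.77 (log2 change -1.13). PID, a kinase that steers auxin efflux carriers, rose from 0.354 ± 0.0591 to 1.16 ± 0.161 (SD, n = 3), while the efflux carrier gene PIN3a fell by 0.98 on the log2 scale. The call of IAA12 was lost without zygote array 2 or fertilization array 2 (adjusted p = 0.088 and 0.094). PID lost its call without any 1 of the zygote arrays or fertilization arrays 1 or 3 (adjusted p between 0.054 and 0.081), and also without the filter.

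The remaining large rises were of several kinds. WRKY76, a transcriptional repressor known in rice from responses to blast fungus and cold, had the largest rise of all named genes. It read 1.25, 1.15 and 0.736 at fertilization and 12.9, 11.6 and 11.9 at the zygote stage, an 11.9-fold rise (log2 change 3.57, SE 0.37, adjusted p = 9.7e-06). Its means before were 0.166 in unpollinated stigma, 0.138 in unpollinated ovary and 0.399 during pollen tube growth. WRKY62, a related repressor, read 0.361, 0.302 and 0.312 and then 1.16, 1.37 and 1.05.

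GRXC3, a glutaredoxin, read 0.194, 0.211 and 0.191 and then 2.76, 1.41 and 1.87 (log2 change 3.29, SE 0.31). Of 17 glutaredoxin genes 7 rose and 2 fell, where 16.1% and 9.03% of all genes did. GRXC7, GRXS5 and GRXS2 rose by 1.73, 2.00 and 1.87 on the log2 scale. CAD6, annotated as a cinnamyl alcohol dehydrogenase, the enzyme class that supplies lignin precursors, went from 0.327, 0.379 and 0.285 to 3.24, 2.15 and 2.54 (log2 change 2.99, SE 0.27). HOX2, a homeodomain leucine zipper factor, rose from 1.09, 1.17 and 0.785 to 6.82, 3.84 and 4.99. It was also high in unpollinated stigma, at a mean of 9.96, with a range of 4.55 to 16.6, and low in unpollinated ovary, at 0.577. EXP2, a wall-loosening expansin, rose from 1.58, 2.12 and 0.931 to 8.94, 5.63 and 5.33 (log2 change 2.14, SE 0.57, adjusted p = 0.013). Without zygote array 1 or fertilization array 3 its adjusted p was 0.063 and 0.066. Rac3, a small GTPase of the ROP family, rose from 3.69, 3.32 and 4.47 to 16.2, 15.0 and 14.2. NAC067, a stress-associated NAC factor, went from 0.544, 0.814 and 0.396 to 2.93, 2.45 and 2.20.

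**Figure D4:**
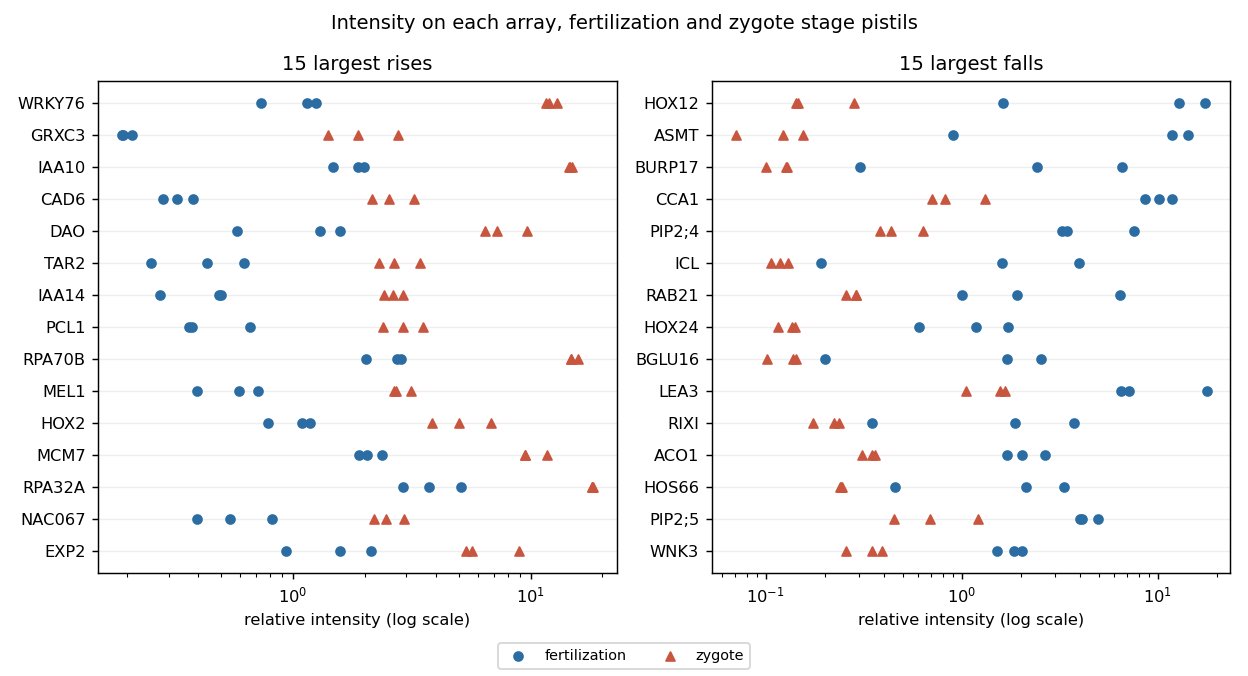
Relative intensity (log scale) of the 15 named genes with the largest rise and the 15 with the largest fall on each of the 3 fertilization arrays (circles) and the 3 zygote arrays (triangles). Fertilization arrays of the falling genes spread widely, from 1.63 to 17.5 in HOX12, and the 3 zygote arrays of WRKY76 lie between 11.6 and 12.9.

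Several of the genes that fell furthest had been high at every pollinated stage before. HOX12, a homeodomain leucine zipper factor, read 12.8, 1.63 and 17.5 at fertilization and 0.283, 0.143 and 0.146 at the zygote stage (log2 change -5.31, SE 0.75, adjusted p = 1.4e-04). Its means were 0.141 in unpollinated stigma and 0.379 in unpollinated ovary, then 13.5 and 13.0 in stigma and ovary 5 min after pollination and 16.9 during pollen tube growth. ASMT, the last enzyme of melatonin synthesis, read 11.9, 0.903 and 14.3 at fertilization and 0.155, 0.123 and 0.0702 at the zygote stage (log2 change -5.30, SE 0.79, adjusted p = 2.1e-04), after means of 0.171 and 0.121 in the unpollinated organs and 15.2 and 10.9 at 5 min. The zygote arrays of HOX12 lay within the range of the unpollinated arrays, 0.0637 to 0.716, and those of ASMT lay between 0.0702 and 0.155 against 0.0958 to 0.203 in the unpollinated arrays. HOX24, a related homeodomain factor known in rice from abscisic acid and drought responses, read 1.73, 0.606 and 1.19 and then 0.136, 0.141 and 0.115. Because zygote values lie at or near the floor, the size of these falls depends on it: 39.6-fold in HOX12 and 39.3-fold in ASMT became 31.7-fold and 26.6-fold with a floor at the 40th percentile of the table.

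The same shape was seen in other genes of the 15. BURP17, of the BURP domain family, read 2.42, 0.301 and 6.58 at fertilization and 0.127, 0.129 and 0.100 at the zygote stage. ICL, isocitrate lyase of the glyoxylate cycle, read 1.61, 0.191 and 3.98 and then 0.131, 0.118 and 0.107 (log2 change -3.06, SE 1.04, adjusted p = 0.049). The call of ICL held without fertilization array 2 (adjusted p = 0.0064) and was lost without any 1 of the other 5 arrays (0.11 to 0.22), and also under 6 alternatives of scaling, filter, floor and variance model (0.051 to 0.13). BGLU16, a beta-glucosidase, read 2.52, 0.200 and 1.70 and then 0.102, 0.143 and 0.139. On fertilization array 2 all of these were several-fold lower than on arrays 1 and 3. Without that array the log2 changes were larger, -6.37 for HOX12, -6.58 for ASMT, -4.96 for BURP17, -4.30 for ICL and -3.93 for BGLU16. These sizes too depend on the floor, at or near which the zygote values lie: with all arrays, the falls of 13.2-fold in BURP17, 8.32-fold in ICL and 6.98-fold in BGLU16 became 8.37-fold, 5.41-fold and 4.73-fold with the higher floor. In the stigma within 5 min of pollination, a contrast that shares no arrays with this one, 10 of the 15 largest falls had risen, against 12.2% of all genes tested. Of all 1469 genes that fell at the zygote stage 368 (25.05%) had risen in the 5 min stigma, and these were 18.5% of the 1991 genes that rose there. Of the 2620 genes that rose at the zygote stage the number was 104 (3.97%).

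**Figure D5:**
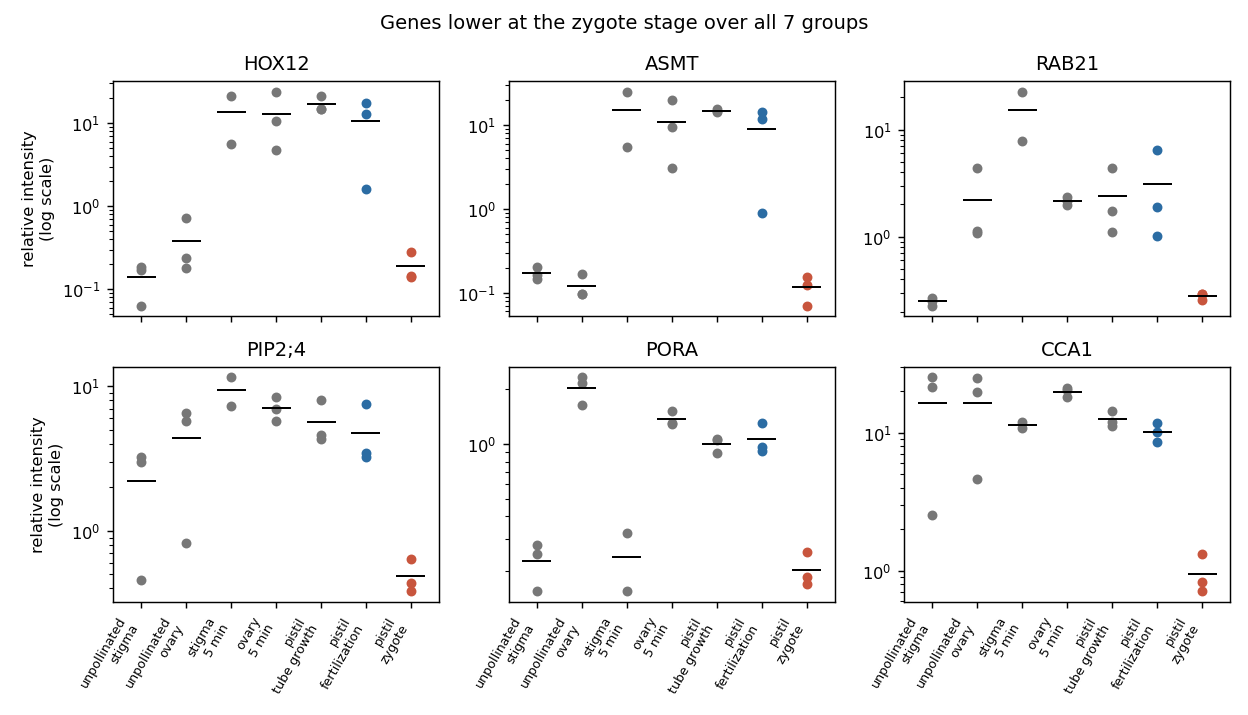
Relative intensity (log scale) of HOX12, ASMT, RAB21, PIP2;4, PORA and CCA1 in each of the 7 groups. Points are arrays and bars are group means. HOX12 and ASMT are low in both unpollinated organs, high in the 4 groups from 5 min to fertilization and low again at the zygote stage.

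Abscisic acid genes fell more often than they rose. This hormone prepares plant cells for drying, and its targets include dehydrins and other late embryogenesis abundant (LEA) proteins. Of 92 genes tested, type 2C protein phosphatases among them, 26 (28.3%) fell and 5 (5.43%) rose, with a median of -0.27. Over all genes 9.03% fell and 16.1% rose. After median centring 13 fell and 5 rose, and 2 rose without zygote array 2 and 3 without zygote array 3 or fertilization array 1 or 3. RAB21, a dehydrin, read 6.39, 1.01 and 1.91 at fertilization and 0.256, 0.290 and 0.289 at the zygote stage (log2 change -3.05, SE 0.61, adjusted p = 2.0e-03). LIP9, another dehydrin, read 14.1, 17.4 and 8.44 and then 3.13, 2.80 and 3.19, and LEA3, a LEA protein, read 17.8, 6.46 and 7.09 and then 1.06, 1.66 and 1.57. LEA3 sits at the threshold (adjusted p = 0.050) and lost its call under 11 of the 20 alternatives. RAB16B and RAB16C, further dehydrins, had log2 changes of -1.42 and -0.95 and did not pass.

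The factor BZIP23, a bZIP activator of abscisic acid and drought responses, read 7.07, 3.71 and 4.56 and then 0.990, 0.957 and 0.979 (log2 change -2.34, SE 0.42, adjusted p = 8.4e-04). ABA8OX2, which breaks the hormone down, fell from 4.29 ± 0.446 to 1.41 ± 0.125 (SD, n = 3), and ZEP, which acts in its synthesis, fell by 1.04 on the log2 scale. Protein phosphatases of type 2C include the negative regulators of the hormone's signalling. The list of 92 takes in this family, and not only those regulators. Of 55 such phosphatases tested, 15 fell and 2 rose. PP2C30 went from 15.4, 7.20 and 11.9 to 2.71, 2.45 and 2.26 and PP2C68 from 3.50, 2.15 and 3.02 to 0.790, 0.582 and 0.639, whereas PP2C36 rose from 0.665, 0.588 and 0.518 to 1.35, 1.81 and 1.87.

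Water channels fell with them. Of 9 plasma membrane intrinsic proteins, the aquaporins that let water across the cell membrane, 5 fell and none rose. Over all genes 9.03% fell and 16.1% rose. PIP2;4 read 7.58, 3.24 and 3.43 and then 0.636, 0.436 and 0.382 (log2 change -3.21, SE 0.70, adjusted p = 3.7e-03), and PIP2;5 read 4.93, 4.12 and 4.03 and then 1.21, 0.451 and 0.690 (log2 change -2.59, SE 0.38). PIP2;5 had been low in both unpollinated organs, at means of 0.345 and 0.261, and stood at 6.19 in the 5 min stigma. PIP1;2 went from 32.4, 23.8 and 27.0 to 7.20, 6.57 and 7.90, and PIP2;7 had a log2 change of 0.58 that did not pass. In the wider list of sugar and water transporters 9 of 36 (25.0%) fell and 1, the sucrose transporter SUT2, rose. The sugar exporter SWEET15 fell from 2.75, 3.13 and 1.73 to 1.04, 0.865 and 0.833, a call lost without fertilization array 1 or 2 (adjusted p = 0.052 and 0.055). SWEET14 and SUT1 had log2 changes of -0.52 and -0.63 without passing.

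Genes of starch and sugar metabolism fell in 5 of 27 cases (18.5%) and rose in 1 (3.70%), against 9.03% and 16.1% of all genes. AMY3D, an alpha-amylase that rises in rice under sugar starvation, read 1.09, 1.01 and 0.546 and then 0.196, 0.179 and 0.142 (log2 change -2.30, SE 0.27, adjusted p = 3.1e-05). TPP4, a trehalose-phosphate phosphatase, read 5.25, 4.66 and 6.94 and then 1.23, 0.925 and 1.39 (log2 change -2.25, SE 0.27). CIN2, a cell wall invertase, was the gene that rose, from 1.60, 3.12 and 2.62 to 3.94, 3.76 and 4.40 (log2 change 0.77, adjusted p = 0.012). Without zygote array 3 or fertilization array 1 its adjusted p was 0.053 and 0.075.

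Genes for chlorophyll and the photosystems fell in 9 of 18 cases (50.0%) and rose in none, against 9.03% and 16.1% of all genes. Their median log2 change was -0.76. PORA, a protochlorophyllide reductase active in greening tissue, read 0.958, 0.910 and 1.31 and then 0.184, 0.169 and 0.254 (log2 change -2.39, SE 0.27, adjusted p = 1.9e-05). PSAG, a subunit of photosystem I, read 3.30, 2.16 and 3.34 and then 0.510, 0.598 and 0.583. RCAA1, Rubisco activase, fell from 3.98, 3.92 and 2.39 to 0.937, 0.765 and 0.941, and all 4 of its probe sets passed. Probe sets disagreed for PSAG, whose second one had a log2 change of -0.25 and did not pass, and for CHLH, a magnesium chelatase subunit counted as falling (-1.21), whose second one rose by 1.03. The light-harvesting gene CAB2R fell from 22.0, 13.1 and 13.5 to 6.39, 5.77 and 9.44, a call lost without zygote array 2 or fertilization array 1 (adjusted p = 0.060 and 0.075). CHLP, which makes the tail of chlorophyll, fell by 1.38 on the log2 scale. PORB, the second reductase, and rbcS, the small subunit of Rubisco, had changes of 0.18 and 0.14 and did not pass. Of the 18, 12 were higher in the unpollinated ovary than in the stigma, and none was higher in the stigma. Leaving out all probe sets with the suffixes _a_at, _s_at or _x_at left 10 genes of the list to test, of which 4 fell.

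Clock genes differed between the stages in opposite directions. The plant circadian clock is a loop in which CCA1 peaks in the morning and PRR1 and PCL1 in the evening. CCA1 read 11.8, 8.64 and 10.2 at fertilization and 1.31, 0.705 and 0.824 at the zygote stage (log2 change -3.47, SE 0.65, adjusted p = 1.3e-03). PCL1 read 0.366, 0.660 and 0.376 and then 3.53, 2.40 and 2.90 (log2 change 2.69, SE 0.58, adjusted p = 3.4e-03). PRR1 rose from 1.22, 1.54 and 1.59 to 3.79, 4.51 and 4.81 (log2 change 1.60, SE 0.44, adjusted p = 0.017), and PRR73 fell from 14.7, 13.8 and 12.8 to 8.58, 8.53 and 8.56 (log2 change -0.68). PRR1 lost its call without zygote array 2, zygote array 3 or fertilization array 1 (adjusted p = 0.054, 0.061 and 0.069), and PRR73 after median centring (0.19). GI had a log2 change of 1.03 (SE 0.51), PRR95 one of 0.59 and PRR37 one of 0.23, and these 3 did not pass. Before pollination these genes varied widely within a group: PCL1 ranged from 4.87 to 29.15 on the unpollinated stigma arrays, and CCA1 from 2.51 to 25.23 in unpollinated stigma and from 4.60 to 25.0 in unpollinated ovary. The labels give the time since pollination and not the time of day, so stage and time of day cannot be told apart in any gene of this comparison.

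Ethylene and cytokinin genes fell more often than they rose, where over all genes 9.03% fell and 16.1% rose. Among 20 ethylene and AP2/ERF genes 5 (25.0%) fell, or 3 after median centring, and none rose. The largest fall was in ACO1, the enzyme of the last step of ethylene synthesis, which read 2.04, 2.66 and 1.71 and then 0.362, 0.310 and 0.347 (log2 change -2.63, SE 0.60). Of 29 cytokinin genes 6 (20.7%) fell and 1 (3.45%) rose, and 3 fell after median centring. CKX5, a cytokinin oxidase that degrades the hormone, fell from 1.70, 2.50 and 1.13 to 0.422, 0.497 and 0.438, and HK4, a receptor kinase, rose from 1.28, 1.49 and 1.23 to 2.41, 2.42 and 2.55. Of 10 gibberellin genes 3 fell and 1 rose, but none fell without zygote array 2, and 1 fell without any 1 of zygote arrays 1 or 3 or fertilization arrays 1 or 2. GA20OX2, the green revolution enzyme, fell by 1.43 on the log2 scale while GA20OX3, of the same enzyme family, rose. GA20OX2 went from 1.02, 1.14 and 1.20 to 0.500, 0.350 and 0.409, and GA20OX3 from 0.879, 1.03 and 1.37 to 2.04, 2.26 and 2.18. Without zygote array 2 the adjusted p of GA20OX2 was 0.064.

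Genes that distinguish the organs before pollination were followed as sets. Of 723 probe sets at least 4-fold higher in unpollinated stigma than in unpollinated ovary, 52 (7.19%) rose and 126 (17.4%) fell, and the median log2 change was -0.26. Of 613 probe sets with the reverse preference, 156 (25.4%) rose and 101 (16.5%) fell, with a median of 0.13. Among all probe sets tested 11.2% rose and 6.79% fell, with a median of -0.03. Both shares of the ovary set lay above these. The stigma set had median levels of 1.13 to 1.31 on the fertilization arrays and 1.05 to 1.13 on the zygote arrays, and the ovary set 2.17 to 2.31 and 2.55 to 2.64. BU1, a brassinosteroid response factor, was among the genes high in stigma, with a mean of 61.7 there against 1.83 in ovary, and read 4.79, 5.99 and 7.37 and then 1.96, 1.47 and 2.01. NH1, the rice homologue of the salicylic acid receptor NPR1, had means of 55.8 and 4.13 in the same organs and fell from 6.46, 8.42 and 8.46 to 3.0, 2.69 and 3.28 (log2 change -1.37, SE 0.21).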

How the data were processed

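Per the labels, total RNA of each sample was labelled with biotin and hybridised to 1 array, and per the submitters' processing notes the arrays were read with GCOS 1.3. The deposited values are linear intensities of 57381 probe sets, with the 75th percentile of each array at 1. No source used here names the scaling program. After removal of 187 control probe sets, a floor of 0.128 was set at the table's 20th percentile before taking log2. Probe sets brighter than their array's median on 2 or more arrays, 35470 in all, were tested with limma 3.58.1 in R 4.3.3. One fit covered 7 groups (20 arrays, 13 residual degrees of freedom), with eBayes, an intensity trend and Benjamini-Hochberg adjustment.

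Of all probe sets 22436 had 1 annotated gene, 95 several and 34850 none. Names came from RefSeq symbols and synonyms through gene identifiers, and 2280 of 16263 tested genes had one. A gene was represented by its brightest tested probe set on average. Named were the 15 largest rises and 15 largest falls that passed without overlap, up to 3 per list and direction, and all clock and cell type markers. A further 50 list members, and the families counted, were named after their values were seen. The members and lists were chosen with earlier results of these data known. The lists' name patterns were tightened after seeing annotation names only.

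In simulated data for this comparison, limma called 49 of 100 planted 2-fold changes and 78 of 100 planted 4-fold changes, with 7 false calls among 35470. Far fewer probe sets were changed there than the 6389 called here, and the noise was independent between probe sets. These counts therefore do not give the recovery or error rate of the comparison itself. The precision is limited by 3 arrays per stage. Same-numbered arrays of the stages did not deviate together (r = -0.10, 0.08 and -0.15). Alternatives covered scaling, floor, filter, cross-hybridising probe sets, variance model, arrays fitted, a replicate block and each array left out.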

Additional observations from a re-analysis of the deposited data

How the results depend on the processing

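Of 215 genes followed through 20 alternatives, 172 passed the test. None of these reversed, 60 lost the call under at least 1 alternative and 112 kept it wherever they had a value. Of the 112, 89 had a value under all 20. The other 23 were not tested under a stricter filter or without _a_at, _s_at and _x_at probe sets. Of the 43 that did not pass, 16 gained a call and 13 changed sign under at least 1 alternative. Most losses came from leaving out an array (21 to 37 genes each), median centring (32) and testing all 57194 probe sets (22). Against 3981 probe sets higher and 2408 lower, the counts moved by over 1.5 times under the following alternatives. Fitting the 2 groups alone gave 4312 lower, and the 3 whole-pistil groups 9993 called with 4459 lower. Array weights gave 10847 called, 6056 higher and 4791 lower. Median centring gave 1155 lower, and a 2-fold minimum gave 2489 called, 1371 higher and 1118 lower. With the replicate number as a block the counts were 4205 higher and 2779 lower over all groups. They were 3738 lower when the block was fitted to the 2 groups compared. The labels do not say whether these numbers pair the arrays. Leaving out 1 array gave 4292 to 5362 called, 2757 to 3353 higher and 1466 to 2009 lower. The lower count fell by over 1.5 times without zygote array 1 (1560), 2 (1466) or 3 (1508) or fertilization array 1 (1517), and the causes of these shifts were not tested. The medians of the replication (1.25 to 1.45), ribosome (0.60 to 0.94), abscisic acid (-0.33 to -0.15) and photosystem lists (-0.87 to -0.33) kept their sign under all alternatives, while the median of the starch and sugar list was 0.06 after median centring. The intensities carry no detection calls, so signal over background is unknown, and 45 genes that fell had 2 or more zygote arrays at the floor.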

Other observations

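Transcription factors of flower and meristem development changed in both directions. Of 91 MADS, homeobox, YABBY, TCP and SPL genes tested, 10 rose and 20 fell, and 8 fell after median centring, where the median of the list was 0.07 against -0.06. The TCP factor PCF5 read 0.902, 1.17 and 0.795 at fertilization and 3.72, 3.47 and 3.43 at the zygote stage (log2 change 1.91, SE 0.28, adjusted p = 1.9e-04), and PCF3 read 1.02, 1.35 and 0.906 and then 2.64, 2.44 and 2.52. Hox14, a homeodomain leucine zipper factor like HOX12 and HOX24, read 1.14, 0.722 and 2.57 and then 0.408, 0.371 and 0.334 (log2 change -1.80, SE 0.39). None of 25 MADS genes rose and 5 fell, with changes between -1.19 and 0.97. The floral MADS factors MADS7 and MADS8 read 31.5 to 44.1 and 42.4 to 49.0 at fertilization and 32.6 to 37.3 and 41.2 to 44.1 at the zygote stage.

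Signalling and wall genes gave scattered calls. Over all genes tested, 16.1% rose and 9.03% fell, and several of the shares below lie near or under these. Of 85 calcium signalling genes 7 (8.2%) rose and 10 (11.8%) fell. The calmodulin-like gene CML16 read 6.78, 7.15 and 4.94 and then 1.47, 1.29 and 1.24 (log2 change -2.22, SE 0.58, adjusted p = 0.013), and CML10 read 10.2, 12.2 and 8.80 and then 22.6, 19.1 and 23.2. Of 15 brassinosteroid genes 4 (26.7%) rose and 2 (13.3%) fell. The receptor-like kinase BRL1 went from 0.371, 0.315 and 0.424 to 1.07, 0.813 and 0.846, and the synthesis gene CPD2 from 1.81, 2.57 and 2.16 to 1.04, 0.920 and 1.02. Small heat shock proteins hsp17.9 and HSP17.9B fell by 2.22 and 1.68 on the log2 scale, while of 44 heat shock genes 3 (6.82%) fell and none rose. Among 25 expansins EXP29 went from 2.37, 2.51 and 1.46 to 0.516, 0.510 and 0.342 (log2 change -2.20, SE 0.35), and in all 3 fell and 1 rose. Of 42 wall enzymes 4 (9.52%) rose and 3 (7.14%) fell, and of 75 ion transporters 3 (4.0%) and 8 (10.7%). Of 33 jasmonate genes 1 (3.03%) rose and 3 (9.09%) fell, and of 22 defence genes 2 (9.09%) and 3 (13.6%). Of 39 actin and ROP genes 9 (23.1%) rose and 3 (7.69%) fell, and of 21 WRKY, NAC and MYB genes 3 (14.3%) and 6 (28.6%). Of 62 redox genes 10 (16.1%) rose and 5 (8.1%) fell, and of 9 flowering and light genes 1 (11.1%) and 3 (33.3%). Of 26 metallothionein, senescence and autophagy genes none rose and 3 (11.5%) fell. Except for the brassinosteroid list, each list of both paragraphs had a count that moved by over 1.5 times, or from or to 0, after median centring or without 1 array. No fall was left after median centring among the metallothionein, jasmonate and actin genes, nor among the wall enzymes without zygote array 2. The metallothionein list had 1 fall without zygote array 2 or 3 and 5 without fertilization array 2, and the expansins had 1 fall without zygote array 2 or fertilization array 2 or 3.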
